A study of Homo sapiens with 4 samples.

Results

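Noncoding exon peaks are peaks called for the RNA-binding protein IGF2BP2 whose annotated part lies mainly in exons of noncoding transcripts. They touch no coding sequence (CDS) or untranslated region (UTR). They were taken from the peak lists of 2 IGF2BP2_IP libraries, in which RNA crosslinked to IGF2BP2 was precipitated with anti-IGF2BP2 and sequenced (iRIP-seq). A peak was counted when noncoding exon held the single largest of its annotated region shares and its region entry named no CDS or UTR. Length outside any annotated region was not weighed. This gave 2441 of 145715 peaks (1.68%) in replicate 1 and 2505 of 137934 peaks (1.82%) in replicate 2. Both libraries came from untreated Jurkat cells, a human T-cell acute lymphoblastic leukaemia (T-ALL) line grown in culture, and nothing in the labels says whether they came from separate cultures. The input libraries were not analysed here, so enrichment over total RNA was not measured, and abundance of an RNA cannot be told apart from binding.

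Noncoding exons have several sources. Some belong to long noncoding RNAs (lncRNAs), to transcribed pseudogenes or to small structured RNAs. Others belong to transcripts of protein-coding genes that have no annotated reading frame, such as transcripts that retain an intron. IGF2BP2 is a reader of N6-methyladenosine (m6A) that is best known for binding and stabilising mRNAs, and it also binds lncRNAs.

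The height of a peak is the deposited signal in tags and is not adjusted for library depth, which is unknown. Of the noncoding exon peaks, 95.3% and 93.2% had a listed length of 51 bases. Longer ones can have fractional heights, so the height is not a plain count of reads. The cell line could be checked from the peaks, since 9 of 9 T-cell marker genes had peaks in replicate 1 and 8 of 9 in replicate 2, where CD2 had none. Of 6 markers of B cells, myeloid cells and red cells, 0 had a peak in replicate 1 and 3 had a single peak each in replicate 2. ZAP70, the kinase next to the T-cell receptor, was the only one of the 15 markers with noncoding exon peaks, 1 of 4 tags in replicate 1 and 8 of 5 to 16 tags in replicate 2. None of the ZAP70 peaks overlapped between the replicates.

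The letters under a few peaks seen in both replicates could be read from RefSeq tables (GRCh38.p14), which cover miRNA hairpins and a window around each gene start. MIR142HG is the host RNA of miR-142, a microRNA of blood cells. It had a peak on the minus strand of 6 tags at chr17:58331300-58331350 in replicate 1. The peak of replicate 2 had 12.5 tags and was longer, at chr17:58331300-58331400. Both peaks covered the first 18 bases of the miR-142 hairpin, at chr17:58331301-58331318, and reached into the start of the 5p arm. The hairpin stretch and the mature arms, with the seed (bases 2 to 8) in capitals, are shown to place the peaks relative to the microRNA.
miR-142 hairpin under the peak: gacagugcagucacccau
miR-142-5p: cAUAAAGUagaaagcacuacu
miR-142-3p: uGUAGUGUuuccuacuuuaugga

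A peak of 6 tags in replicate 1 and 14 tags in replicate 2, inside the pseudogene CRYBB2P1, covered the last 11 bases of the MIR6817 hairpin at chr22:25455701-25455711 on the plus strand. These bases hold the 3' end of miR-6817-3p and not its seed. Hairpins were rare under the noncoding exon peaks, with 2 peaks in replicate 1 and 5 in replicate 2 that overlapped one of 1562 hairpins.
miR-6817-3p: uCUCUCUGacuccauggca
MIR6817 hairpin under the peak: cuccauggcag

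Gene starts were under more of the peaks, with 32 in replicate 1 and 37 in replicate 2 that overlapped a start window (250 bases before to 50 after a RefSeq start). Of the gene starts with a peak in both replicates, the 4 with at most 30 window bases under the peak are shown. The peaks had 5.5 and 13 tags at the ARL6IP4 start, 9 and 5 tags at ATP8B1-AS1, 4 and 6 tags at CARINH and 4 and 5 tags at SNHG22, in replicate 1 and replicate 2. The letters were searched on the strand of the peak for GGAN, and a match is in capitals. The same bases of all 35116 start windows held GGAN in 49.7% for the 30-base stretches, 47.0% for CARINH and 36.9% for SNHG22, so the 1 match among 4 stretches is a description only.
ARL6IP4, chr12:122980701-122980730, plus strand: tcgagaaggcgcggggcgggctgtccggcc
ATP8B1-AS1, chr18:57630351-57630380, plus strand: cgtggcgccgcgcctccgggtgttggGGAG
CARINH, chr5:132410951-132410978, plus strand: ggcgcagctgccgtttcaggcgaggggc
SNHG22, chr18:49814051-49814072, plus strand: gaccggttttgggtactgtact

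Noncoding exon peaks were few and mostly low. They made up 1.75% ± 0.0996 (SD, n = 2) of all peaks. The shares of the 2 lists lay 0.141 percentage points apart (two-sided Fisher's exact test between these lists, which covers counting error only and compares no conditions, adjusted p = 0.00620 over 13 tests), and -0.00448 points apart among peaks with a p value under 0.001 (adjusted p = 0.969). The whole length was noncoding exon in 2094 and 2109 of the peaks, 290 and 315 also covered intron, and 57 and 81 lay partly outside any annotated region. The lowest noncoding exon share was 0.02, and 5 and 9 peaks tied at a share of 0.5 were left out. A further 865 and 1154 peaks were mainly noncoding exon but touched CDS or UTR and were not counted.

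Heights in replicate 1 ran from 4 to 19 tags with a median of 4, and those in replicate 2 from 5 to 191 tags with a median of 5. The lowest height of each list was held by 69.4% and 60.2% of the noncoding exon peaks, and by 74.3% and 62.6% of all peaks. In replicate 1, 27 noncoding exon peaks had 10 tags or more (1.11%, against 1.68% of all peaks), and in replicate 2 119 had (4.75%, against 5.97% of all peaks). Peaks wholly inside introns were as high in 0.227% and 0.921%, less often than noncoding exon peaks (Fisher's exact test, adjusted p = 6.49e-10 and 6.36e-41). Peaks mainly in CDS were as high in 8.02% and 20.5%. The replicates differed in height throughout, and since heights are not adjusted for depth, a difference in depth cannot be told apart from one in binding.

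About 1 in 9 noncoding exon peaks was seen in both libraries. A peak of the other replicate overlapped, by at least 1 bp on the same strand, 266 of the 2441 peaks of replicate 1 (10.9%, against 9.19% of all peaks) and 268 of the 2505 peaks of replicate 2 (10.7%, against 9.62% of all peaks). The mean was 10.8% ± 0.140 (SD, n = 2), near the background of all peaks. Peaks wholly inside introns were overlapped in 2.91% and 3.22% (adjusted p = 2.58e-67 and 5.76e-58, Fisher's exact test), and peaks mainly in CDS in 45.8% and 35.0% (adjusted p = 2.80e-267 and 4.12e-156). Peaks of a gene are not independent, so these tests cover counting error within the 2 lists only.

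The order of the 3 regions held at equal height. In replicate 1 the overlapped share of noncoding exon peaks was 5.25% from 4 to under 5 tags, 13.5% from 5 to under 6 tags, 33.8% from 6 to under 8 tags and 54.7% from 8 to under 10 tags. In replicate 2 it was 3.73% from 5 to under 6 tags, 12.5% from 6 to under 8 tags and 36.0% from 8 to under 10 tags. The intron share was lower and the CDS share higher in every one of these bins. At 10 tags or more, 63.0% of 27 and 55.5% of 119 noncoding exon peaks were overlapped, against 64.4% and 54% of all peaks, 38.7% and 34.4% of introns and 73.8% and 66.1% of CDS peaks. The difference from introns passed Fisher's exact test in both replicates (adjusted p = 0.0398 and 0.000253 over 4 tests), and that from CDS passed in replicate 2 (adjusted p = 0.0371) and not in replicate 1 (adjusted p = 0.268). With the other list also limited to 10 tags or more, neither difference passed Fisher's exact test in replicate 2 (5.14 points from introns, adjusted p = 0.163, and -8.25 points from CDS, adjusted p = 0.137), and in replicate 1 the one from introns passed (30.2 points, adjusted p = 0.0273) while that from CDS did not (-8.98 points, adjusted p = 0.703).

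The partner of an overlapped peak was nearly always of the same kind. Region and identifier are annotated by position, so overlapping peaks mostly share them in any case, and the counts are a description only. It was itself a noncoding exon peak for 262 of 266 and 263 of 268 overlapped peaks, and it carried the same gene identifier for 263 and 267. Among the 263 pairs of a shared identifier, 175 had identical start and end. The peak of replicate 2 was the higher in 202 pairs, that of replicate 1 in 40, and 21 were equal, with medians of 5 and 7 tags. Both heights were at least 10 tags in 12 pairs and at least 15 tags in 1 pair.

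Peaks that ran from noncoding exon into intron were found again more often than those wholly in noncoding exon. The overlapped share was 29.7% of 290 and 28.6% of 315 peaks with intron, against 8.45% of 2094 and 8.35% of 2109 whole ones (adjusted p = 6.01e-21 in both replicates, Fisher's exact test). Peaks with intron were also higher, with 3.10% and 16.5% at 10 tags or more against 0.860% and 2.89%. Among peaks under 10 tags the overlapped share was 28.8% and 22.1% with intron, against 7.95% and 6.98% of whole ones. With a p value under 0.001 in both lists the difference stayed, at -21.2 and -9.41 points for whole ones (Fisher's exact test, adjusted p = 0.00315 and 0.0363). With both lists limited to peaks of at least 10 tags it reversed, to 5.56 and 12.5 points in favour of whole ones. That reversal did not pass (Fisher's exact test, adjusted p = 1 and 0.154) and rests on 18 whole peaks and 9 with intron in replicate 1, and 61 and 52 in replicate 2.

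Few noncoding exon peaks, 23 (0.942%) in replicate 1 and 27 (1.08%) in replicate 2, were faced by an opposite-strand peak of their own list, against 1.68% and 2.89% of all peaks. Peaks wholly inside introns had one in 0.644% and 0.655%.

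Both protein-coding and noncoding genes carried these peaks. The 2 lists held 3049 gene identifiers with a noncoding exon peak, 14.9% of the 20428 identifiers with any peak on their own strand, of which 1833 were in replicate 1, 1695 in replicate 2 and 479 in both. A single noncoding exon peak was the only one for 1532 and 1352 identifiers, and 171 identifiers had peaks that overlapped between the replicates. Identifiers were sorted by whether they also had CDS or UTR peaks, and otherwise by the RefSeq genes that held their peaks. A RefSeq gene of unknown strand could hold peaks of either strand. An identifier with CDS or UTR peaks was the source of 33.2% and 35.4% of the noncoding exon peaks, an identifier inside a protein-coding gene of 11.3% and 9.30%, one inside a noncoding gene of 40.2% and 42.3%, and one inside both kinds of 2.79% and 2.83%. No RefSeq gene held the remaining 12.5% and 10.1%. Protein-coding genes, counted as the first and the second kind, made up 45.7% and 45.5% of the identifiers.

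**Figure D1:**
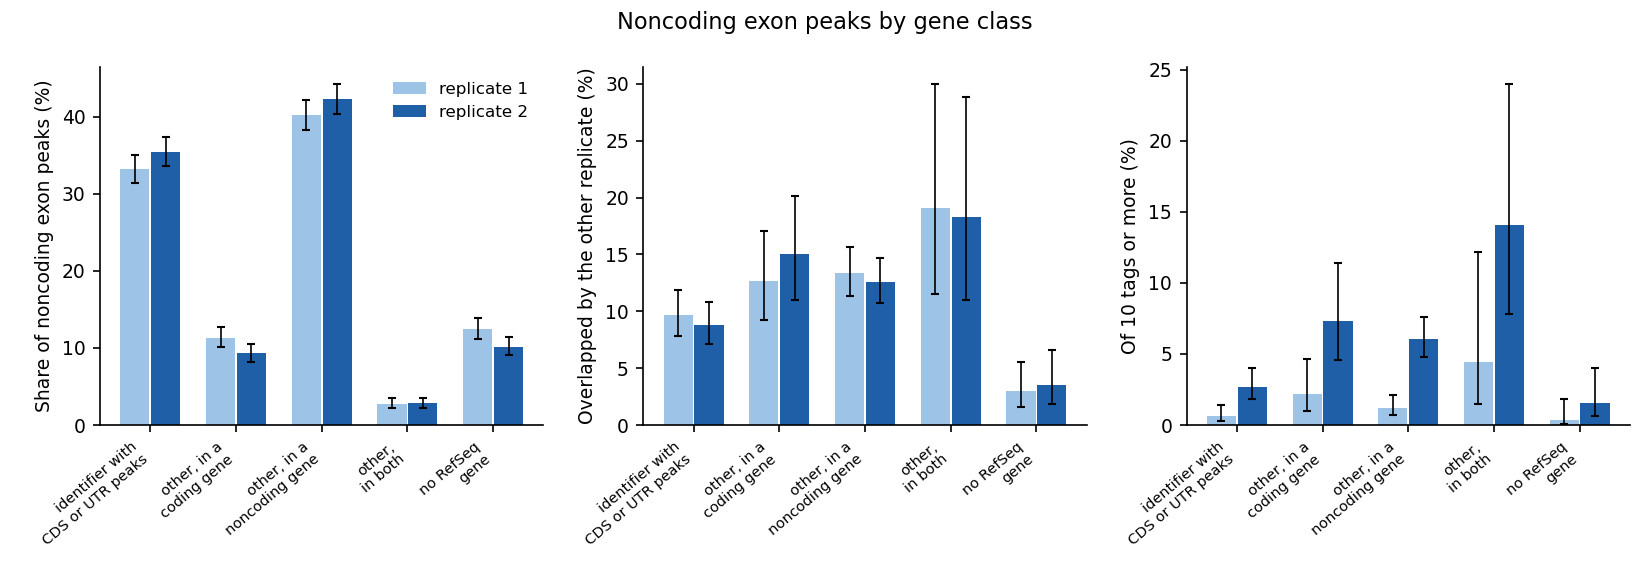
Share of noncoding exon peaks (left), share overlapped by the other replicate (middle) and share of 10 tags or more (right), all in %, for 5 classes of gene identifier in each replicate; bars on the columns are 95% Wilson intervals. Identifiers in noncoding genes held the most peaks (40.2% and 42.3%), and peaks in no RefSeq gene were overlapped in only 2.96% and 3.54%.

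Peaks in noncoding genes, pooled over lncRNAs, pseudogenes and other kinds, were found again somewhat more often than those of identifiers with CDS or UTR peaks. The lncRNA peaks alone had 8.90% and 9.09% overlapped, below those identifiers in replicate 1 and above them in replicate 2. Pseudogene peaks alone had 20.3% and 16.9% overlapped, and neither kind was tested separately against those identifiers. The overlapped shares were 13.3% of 982 and 12.5% of 1060 peaks in noncoding genes, against 9.63% of 810 and 8.79% of 887 (Fisher's exact test, adjusted p = 0.0175 and 0.0109). With a p value under 0.001 in both lists neither difference passed Fisher's exact test (adjusted p = 0.181 and 0.327). With at least 10 tags in both lists both reversed without passing Fisher's exact test (adjusted p = 0.546 and 0.538). That limit left 5 peaks of identifiers with CDS or UTR peaks against 12 in noncoding genes in replicate 1, and 24 against 64 in replicate 2. Other identifiers inside protein-coding genes had 12.6% and 15.02% overlapped and differed from noncoding genes by -0.705 and 2.47 points (Fisher's exact test, adjusted p = 0.841 and 0.3602). With a p value under 0.001 in both lists these differences were 14.4 and 16.01 points, and the one in replicate 2 passed Fisher's exact test (adjusted p = 0.180 and 0.0366). Of the identifiers with CDS or UTR peaks and a noncoding exon peak, 451 of 611 and 491 of 596 also had a CDS peak in the same library. In protein-coding genes the noncoding exon peaks lay at a median of 0.619 and 0.618 of the way along the gene, close to the 0.611 and 0.614 of CDS peaks, while intron peaks lay at 0.444 and 0.430.

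Among the noncoding genes, 742 identifiers lay in lncRNA genes and 363 in pseudogenes. lncRNAs held 618 and 616 peaks, of which 55 and 56 (8.90% and 9.09%) were overlapped. Pseudogenes held 320 and 391 peaks, of which 65 and 66 (20.3% and 16.9%) were overlapped, and this contrast was seen in the values and not tested. A pseudogene shares much of its sequence with its parent gene, so its peaks are uncertain even with uniquely mapped reads. Chromosome 16 held 8.73% and 7.90% of the noncoding exon peaks against 4.40% and 4.93% of all peaks. Chromosome 17 held 7.46% and 7.62% against 4.95% and 5.69%. Why these shares were higher was not tested.

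The highest peaks found in both replicates lay on host RNAs of small nucleolar RNAs (snoRNAs), on noncoding transcripts within protein-coding genes, on a histone gene and on pseudogenes. The first, ranked by the lower of its 2 heights, was at chr12:53455450-53455500, with heights of 16 tags and 25 tags in replicates 1 and 2. It carried an identifier of its own (ENSG00000257379.1) but lay inside PCBP2, which encodes a poly(C)-binding protein. This identifier had 7 peaks of 6.67 to 19 tags in replicate 1 and 6 peaks of 10.5 to 25 tags in replicate 2, of which 5 and 5 overlapped, and 0 CDS peaks. Each of these peaks also covered intron, with noncoding exon shares of 0.58 to 0.91. The identifier named for PCBP2 itself (ENSG00000197111.16) had 2 and 2 CDS peaks.

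ARL6IP4 encodes a protein linked to splicing, and unlike at PCBP2 no identifier with CDS or UTR peaks was named for it. An identifier inside it (ENSG00000256028.2) had 7 and 7 peaks, of which 3 and 3 overlapped, and the highest shared one, at chr12:122981100-122981150, had 15 and 12 tags. Its peak at chr12:122981950-122982000, with 15 tags in replicate 1, had no counterpart in replicate 2. At PGAM5, a mitochondrial phosphatase gene, the identifier ENSG00000256632.3 had 1 peak in each replicate, of 9 and 12 tags. In all, 40 identifiers, this one included, lay inside a protein-coding gene that another identifier was named for.

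SRRM2, which encodes a scaffold protein of nuclear speckles, had 3 shared noncoding exon peaks in each replicate. All its noncoding exon peaks numbered 5 and 4, beside 27 and 22 CDS peaks. The shared peaks had 10 and 19 tags at chr16:2759700-2759750, 14.7 and 11.5 tags at chr16:2769600-2769750 and 9.5 and 12 tags at chr16:2769950-2770050. Which replicate was the higher thus differed from peak to peak within the gene.

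H3C12, a histone H3 gene, had 1 peak in each replicate, of 13.8 tags at chr6:27892750-27893000 and 12.5 tags at chr6:27892950-27893050. GAPDH, a glycolytic enzyme gene, had 1 peak of 10 tags in each replicate at chr12:6534950-6535000. GADD45B, a stress response gene, had 1 and 2 peaks within chr19:2476650-2476900, the highest of 9.6 and 9.5 tags. In each of these 3 genes the highest peaks of the replicates lay within 2 tags of each other.

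The snoRNA host RNAs are spliced transcripts whose introns give rise to snoRNAs and whose exons have no long reading frame. SNHG17 had a peak of 12 and 20 tags at chr20:38427300-38427350, the only overlapping one of its 4 and 4 peaks. SNHG15 had 2 and 2 peaks, all overlapping, with 11 and 11 tags at the highest, chr7:44986500-44986550. SNHG29 had 7 and 7 peaks with 5 and 5 overlapping, and reached 10 and 20 tags at chr17:16440150-16440200. Its 5 shared peaks lay between positions 16439050 and 16441100.

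Of all RefSeq genes with a peak, 14.1% had a noncoding exon peak. The share was 20.5% of 3963 lncRNA genes and 10.1% of 13893 protein-coding genes. Peaks were taken on the strand of the gene, or on either strand where that strand was unknown. Of a list of 20 snoRNA and miRNA host RNAs, 15 had a peak and all 15 a noncoding exon peak, 12 in each replicate and 9 in both, and 2 in replicate 1 and 7 in replicate 2 reached 10 tags. GAS5, a growth arrest RNA, had 4 and 5 peaks with 2 and 2 overlapping and highest heights of 5 and 11 tags. SNHG12 had 3 and 3 peaks with 2 and 2 overlapping and highest heights of 5 and 12.5 tags. ZFAS1 had 3 and 2 peaks, the highest of 9 and 12 tags. DANCR and EPB41L4A-AS1 had 1 peak of 4 tags each in replicate 1 and none in replicate 2.

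Of 12 nuclear and architectural lncRNAs, 10 had a peak and 7 a noncoding exon peak (20.5% of all lncRNA genes with a peak), all 7 in replicate 1 and 4 in replicate 2. NEAT1, the scaffold RNA of paraspeckles, had more noncoding exon peaks than any other identifier. It had 24 of 4 to 9 tags in replicate 1 and 33 of 5 to 11 tags in replicate 2. Of these, 6 and 6 overlapped (25% and 18.2%, against 10.9% and 10.7% of all noncoding exon peaks). NEAT1 was named for its many peaks, and whether closely spaced peaks overlap more often was not tested. MALAT1, a nuclear speckle RNA, had 7 peaks of 4 to 9 tags in replicate 1 and no peak of any kind in replicate 2. NORAD, which binds Pumilio proteins, had 1 and 4 peaks with none overlapping, and OIP5-AS1 had 3 and 2 with 2 and 2 overlapping.

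The identifiers with most noncoding exon peaks after NEAT1 had highest heights of 7 to 14 tags. Several also had many peaks of any kind, 69 and 111 at MIR29B2CHG, 152 and 212 at LDLRAD4 and 25 and 34 at GUSBP11. The identifier at MMP25-AS1 had 12 and 13. The identifier at MIR29B2CHG, the host RNA of miR-29b-2 and miR-29c, had 12 and 24 peaks with highest heights of 7 and 8 tags, of which 2 and 2 overlapped. LDLRAD4, a protein-coding gene that dampens TGF-beta signalling, had 14 and 17 with highest heights of 10 and 9 tags, of which 5 and 5 overlapped. The pseudogene GUSBP11 had 8 and 15 with highest heights of 7 and 14 tags, of which 1 and 1 overlapped. An identifier at MMP25-AS1 (ENSG00000261971.8) had 11 and 9, up to 7 and 8 tags, of which 2 and 2 overlapped.

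Of 27 splicing factor genes, many of which make noncoding transcripts that are degraded, all 27 had a peak and 13 a noncoding exon peak (10.1% of all protein-coding genes with a peak), 10 in each replicate and 7 in both, and 0 and 2 reached 10 tags. HNRNPA2B1 had 2 and 1 peaks, the shared one of 7.5 and 9 tags. SRSF3 had 1 and 1, of 4 and 8 tags, which overlapped. An identifier inside TIA1 had a shared peak of 8 and 16 tags at chr2:70248400-70248450. PTBP1 had 2 and 3 peaks and TRA2B 1 and 1, with none overlapping.

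Pseudogenes and other noncoding loci completed the 15 genes with the highest shared peak. RPS2P5, a ribosomal protein pseudogene, had 2 and 2 peaks, both shared, of 8 and 16 tags at chr12:118246100-118246150 and of 9 and 10 tags at chr12:118246200-118246300. AHSA2P had 5 and 8 peaks with 3 and 3 overlapping, and reached 10 tags in each replicate at chr2:61185500-61185550. An identifier at SMG1P3 (ENSG00000180747.15) had 6 and 5 peaks with 4 and 4 overlapping and highest heights of 9 and 15 tags. BMS1P20 had a shared peak of 9 and 9 tags at chr22:22303200-22303300, and an identifier at the lncRNA LINC01226 (ENSG00000284543.1) had one of 10 and 12 tags at chr1:31521000-31521050.

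The highest noncoding exon peaks of replicate 2 had no counterpart in replicate 1. They were chosen after their values were seen, and 3 of the 4 described here lay on small structured RNAs. SNORD3C, a copy of the U3 snoRNA gene that acts in ribosomal RNA processing, reached 191 tags at chr17:19190150-19190200. SNORD3D, another U3 copy, reached 63.7 tags at chr17:19112400, and it also had a shared peak of 7 and 5 tags. The U3 copies are nearly identical, so the assignment of reads to one copy is uncertain.

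RPPH1, the RNA of RNase P, reached 36 tags at chr14:20343150-20343200 in replicate 2 and had no peak in replicate 1. An identifier in no RefSeq gene (ENSG00000278996.1) reached 99 tags at chr21:8223600-8223650, again in replicate 2 only. The peaks at SNORD3C, RPPH1 and this identifier each had an opposite-strand peak in the same list, against 1.08% of all noncoding exon peaks of replicate 2. Among peaks of at least 10 tags in replicate 2 the share was 3.36% of 119 noncoding exon peaks and 12.4% of all peaks. MIR3648-2, a microRNA gene on the same chromosome, was found in both, with 8 and 21 tags at chr21:8987000-8987050.

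Of a list of 18 structural RNAs, 3 had a peak of any kind on their strand, or on either strand where it was unknown. All 3 had a noncoding exon peak, 2 in replicate 1 and 3 in replicate 2. Among all small and structural RNA genes with a peak the share was 62.2% of 45. TERC, the telomerase RNA, had 1 peak of 6 tags in replicate 1 and 2 of 5 and 7.5 tags in replicate 2, with 1 and 1 overlapping. RNU6ATAC, a minor spliceosome RNA, had 1 peak of 5 and 12 tags. Of 10 lncRNAs linked to T cells or leukaemia, 6 had a peak and 1 had a noncoding exon peak, against 20.5% of all lncRNA genes with a peak. It was LUNAR1, a Notch-regulated lncRNA, with 4 tags in replicate 1.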

How the data were processed

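Peaks of 2 IGF2BP2_IP libraries of Jurkat cells were analysed, and input libraries were not used here. The authors aligned 150 bp pairs with TopHat2 to GRCh38, kept uniquely mapped reads, called peaks per library by ABLIRC (500 simulations per gene) and removed peaks overlapping input peaks. Per the labels and methods no versions are given. The deposited height is a signal in tags, not adjusted for depth, and the authors' p-value served only to filter peaks. The region shares and identifiers are the authors' own, and their annotation is not given in the sources used here.

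Positions are printed as the files give them and were read as half-open intervals. Where the ends of a shared peak differed between replicates and 1 position is printed, it is that of replicate 1. Each of the 2118 identifiers named took a RefSeq symbol by position: with CDS or UTR peaks, the only protein-coding gene holding at least 80% of them, otherwise the only unclaimed gene holding all peaks (margin 1000 nt if none). The table has no strand, which was taken from the sequence tables or from the peaks for 1394 genes and stayed unknown for 29309 of 59780. Genes of unknown strand could take peaks of either strand, so some of these peaks may lie opposite to the gene. Fisher's exact tests were two-sided with Benjamini-Hochberg adjustment over 13 tests, and overlap and naming were tested on simulated data. Intervals are 95% Wilson intervals for counting error only, and PCR copies are not independent molecules. The genes named were the 15 with the highest shared peak by the lower height, the 5 with most peaks and the genes of 5 lists. Members, lists and tests were chosen with earlier results of these data known. The share of peaks with the study's motif needs a genome and was not run. Python 3.11.15, pandas 2.3.3 and scipy 1.17.1 were used.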

Additional observations from a re-analysis of the deposited data

How the results depend on the processing

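Depth is unknown, so 1 minimum height is looser in the deeper library, and few peaks reach it. With peaks of at least 10 tags only, the noncoding exon share was 1.27% (1.75% reported), the overlap between lists both limited in this way 29.1% (10.8% reported), from 48.1% in replicate 1 and 10.1% in replicate 2, the protein-coding share of identifiers 35.3% (45.6% reported) and the identifiers in both replicates 11 (479 reported). With whole-length noncoding exon the first 3 were 1.48%, 8.40% and 46.9%, and with a p value under 0.001 they were 1.97%, 20.8% and 47.8%, with 94 shared identifiers. Among exonic peaks only, the noncoding exon share was 9.65%. Overlap was 10.4% at 50% of the length or more, 11.2% with strand ignored, 10.6% with noncoding exon partners only and 15.3% when touching peaks counted. The share of peaks at or above the height was 2.93% as reported, 16.6% with a p value under 0.001, and 25.4%, 7.23% and 0.259% at 6, 8 and 20 tags. The protein-coding share was 51.8% for identifiers in both replicates, 44.6% by peaks, 42.4% by position only and, chosen after seeing the data, 34.2% for identifiers with CDS or UTR peaks only. Overlapping peaks were shared by 171 identifiers. Without either replicate the results ranged from 1.68% to 1.82%, 10.7% to 10.9%, 1.11% to 4.75% and 45.5% to 45.7%.

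Of the tests, with a p value under 0.001 in both lists the difference in share between replicates reversed to -0.00448 points, the overlap of identifiers with CDS or UTR peaks against noncoding genes was -8.88 and -3.82 points and did not pass, and that of other identifiers in coding genes reversed to 14.4 points in replicate 1 without passing and passed at 16.01 points in replicate 2. With at least 10 tags in both lists the share difference was 0.345 points and did not pass, nor did noncoding exon peaks against CDS (-8.98 and -8.25) and, in replicate 2, against introns (5.14). Identifiers with CDS or UTR peaks against noncoding genes reversed to 38.3 and 8.85 points, and whole against intron-touching peaks to 5.56 and 12.5 points, all without passing. Other identifiers in coding genes in replicate 2, which passed neither in the main lists nor here, reversed to -1.93 points. The cause was not tested. The other tests under these 2 alternatives kept their direction and their side of the threshold, with sizes from -21.2 to 30.2 points. No paired analysis was possible because the 2 libraries form 1 group and the inputs that share their numbers were not analysed here.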
